A study of Mus musculus with 6 samples.

Results

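The mitochondrial ribosomal protein genes were taken as the 78 of 55536 rows of the table whose mouse symbol is Mrpl or Mrps, a number and, in some, a letter a, b or c. Of these, 49 are named for the large subunit (Mrpl) and 29 for the small subunit (Mrps). Expression was measured by RNA sequencing of 6 mouse liver samples, 1 library each, in TPM, which corrects each gene for its length and gives all libraries an equal total. All samples were from C57BL/6 mice, 8 to 10 weeks old, with floxed VMP1 alleles, and all had received an intravenous AAV8 vector 2 weeks earlier. The 3 libraries labelled H-VMP1 KO (hepatocyte-specific) came from livers given AAV8-TBG-cre, and the 3 WT libraries came from livers given AAV8-TBG-null, a vector with no Cre. The TBG promoter drives Cre in hepatocytes, so other liver cells keep the floxed gene. The WT animals therefore also carried the floxed alleles and the virus.

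The mitochondrial ribosome translates the few messenger RNAs of the mitochondrial genome, all of which encode core subunits of the respiratory chain and ATP synthase. Its RNAs are transcribed from mitochondrial DNA, whereas all its proteins are encoded in the nucleus, made in the cytosol and imported. The small subunit binds and decodes the messenger RNA, and the large subunit forms the peptide bond and releases the chain at the inner membrane. Many of the proteins descend from bacterial ribosomal proteins, and others are found only in mitochondrial ribosomes. Liver is rich in mitochondria.

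Vmp1, the gene targeted, was not reduced in the labelled knockout. Vmp1 had levels of 157, 136 and 137 TPM in the labelled knockout, against 70.7, 96.5 and 88.6 TPM in the 3 WT libraries. The gene-level value can include exons outside the floxed part and cells without Cre, so it does not check the deletion, and all directions below rest on the labels. Of 10 hepatocyte markers, 9 were lower and 1 did not pass the test, with summed levels of 27117 to 32452 TPM in the labelled knockout and 67936 to 88798 TPM in WT. All 14 macrophage markers were higher (summed level 1742 to 2283 TPM in the labelled knockout, 156 to 266 TPM in WT). The same held for 10 of 10 endothelial markers (181 to 230 TPM in the labelled knockout, 58.0 to 68.9 TPM in WT) and 10 of 10 stellate cell and fibroblast markers (281 to 333 TPM against 48.4 to 53.0 TPM in WT). Of 7 cholangiocyte markers, 5 were tested and all 5 were higher (131 to 181 TPM in the labelled knockout, 16.6 to 31.8 TPM in WT). Of 6 neutrophil markers, 3 were tested and higher (26.8 to 56.2 TPM against 2.04 to 3.46 TPM in WT), and the defining marker Ly6g was listed at 0 in all WT libraries. Of 9 T, B and NK cell markers, 2 were tested and higher (7.23 to 11.5 TPM against 1.66 to 1.89 TPM in WT). A gene was tested only if it reached 1 TPM in 3 or more libraries. At such low WT levels, the neutrophil and the T, B and NK cell markers could pass that filter mostly through the labelled knockout. Their counts of higher genes were thus largely set by the filter and are not counted as support. These marker calls are as deposited, where 74.5% of all genes tested were called higher and 10.7% lower. With median-of-ratios scaling, described below, all 10 hepatocyte markers were lower and 7 of the 10 endothelial markers were higher. With quantile normalization, 8 hepatocyte markers were lower. Under it 8 endothelial, 4 cholangiocyte and 0 T, B and NK cell markers were higher. The other marker counts stayed the same under both scalings. The part of these marker shifts in the results below was not tested. In whole liver, fewer cells of a type and less RNA per cell cannot be told apart. Nothing in the labels ties each library to an animal of its own, so the p-values rest on a spread among libraries that may be partly technical.

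Transcripts of 71 of the 78 mitochondrial ribosomal protein genes were higher in the labelled knockout as deposited, 1 (Mrpl49) was lower and 6 did not pass the test. Calls are from limma on log2(TPM + 1) at an adjusted p under 0.05, with Benjamini-Hochberg adjustment over the 12796 genes tested. All 78 were among the genes tested, at 7.38 to 213 TPM in every library. The 71 are 91.0% of the members, in a comparison in which 74.5% of all genes tested were called higher, and the 1 lower is 1.28%, against 10.7% of all genes tested. The median log2 fold change of the 78 was 0.75, and that of all genes tested was 0.77. A log2 fold change of at least 1 was reached by 25 members (32.1%), against 37.3% of all genes tested. The groups did not overlap for 71 members that were higher and 1 that was lower, where 75.5% and 11.3% of all genes tested did the same. The mitochondrial ribosomal protein genes as a list thus sat close to the other genes tested, and the results below concern how the members differed from one another and from related lists.

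The direction of many members depended on the scaling between libraries. TPM shares a fixed total, and median-of-ratios scaling, which centres the typical gene near 0, shifted the log2 fold changes of all genes tested by a median of -0.84 and those of the members by -0.92. With it, 17 members were higher (21.8%) and 35 lower (44.9%), beside 35.1% higher and 36.6% lower of all genes tested, and the median of the members was -0.15. With quantile normalization, 33 members were higher (42.3%) and 19 lower (24.4%), where 35.3% and 35.4% of all genes tested were. The 17 members that were higher with median-of-ratios scaling were also higher as deposited and with quantile normalization. They were Mrpl19, Mrpl54, Mrps6, Mrpl33, Mrpl23, Mrps25, Mrpl43, Mrps18a, Mrps23, Mrpl27, Mrpl45, Mrps26, Mrpl40, Mrps18b, Mrps15, Mrpl35 and Mrpl16. A further 28 members, called higher as deposited, were lower under median-of-ratios scaling, which 13.1% of all genes tested also did, and their log2 fold changes as deposited lay between 0.30 and 0.72. The 19 members lower with quantile normalization were lower with median-of-ratios scaling as well.

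**Figure D1:**
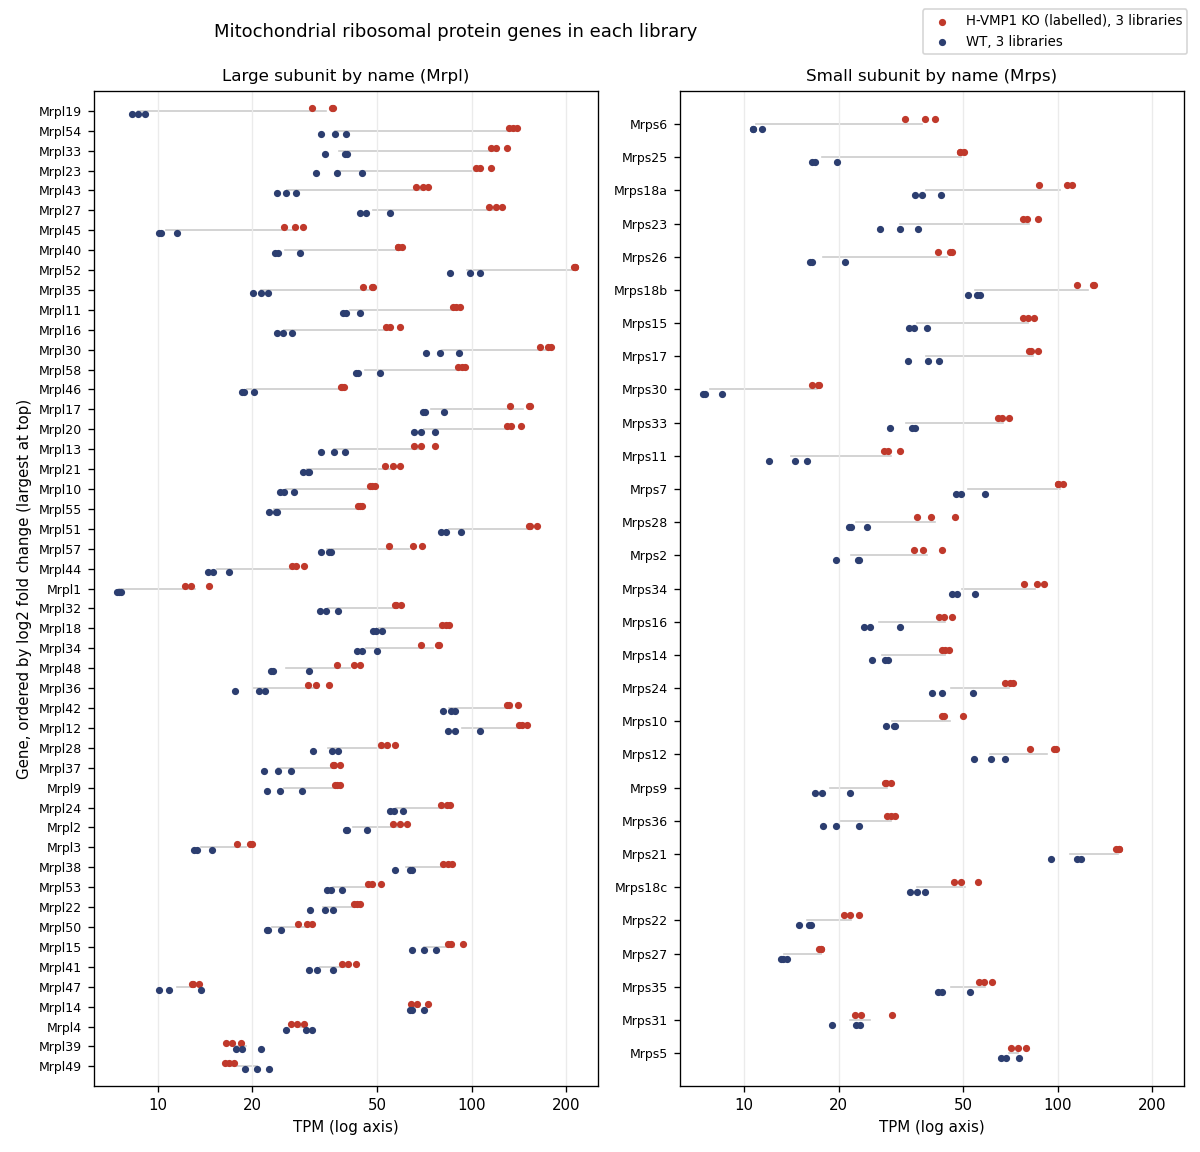
TPM of each of the 78 genes in the 3 labelled H-VMP1 KO libraries (red) and the 3 WT libraries (blue) on a log axis, with a grey line between the group means and genes ordered by log2 fold change. For 71 genes the red points all lie to the right of the blue points, for Mrpl49 all to the left, and for 6 they overlap.

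The level of the members spanned more than an order of magnitude within each group, and that order was largely the same in both. Mean TPM ran from 13.1 (Mrpl47) to 213 (Mrpl52) in the labelled knockout, with a median of 55.9 TPM, and from 7.49 (Mrpl1) to 110 (Mrps21) in WT, with a median of 32.9 TPM. Spearman's rho between the group means was 0.90 across the 78 genes, which share the same libraries and are not independent. The rank correlation of log2 fold change with the WT level was -0.03. Replicates lay close together, with a median coefficient of variation of 4.84% in the labelled knockout and 8.68% in WT. WT replicate 2 was the highest of the WT libraries for 67 of the 78 genes, and for 60.2% of all genes tested.

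Mrpl52, a large subunit protein found only in mitochondria, was the most abundant member. It was at 213, 213 and 213 TPM in the labelled knockout, against 85.2, 107 and 99.1 TPM in WT. The log2 fold change was 1.13 ± 0.11 (SE, n = 3 per group, limma adjusted p = 6.7e-06) as deposited and 0.20 (adjusted p = 0.11) with median-of-ratios scaling. Mrps21, a small subunit protein with a bacterial counterpart, ranked highest in WT and was at 156, 157 and 153 TPM in the labelled knockout, against 95.3, 118 and 116 TPM in WT. Mrpl30, a large subunit protein of bacterial descent, was at 180, 166 and 176 TPM in the labelled knockout and at 71.4, 91.0 and 79.2 TPM in WT. Mrpl51, a large subunit protein of mitochondria only, was at 153, 153 and 162 TPM in the labelled knockout, against 80.0, 92.4 and 82.8 TPM in WT. In each of these 4 genes the labelled knockout libraries all lay above the WT libraries. The 3 least abundant members were Mrps30, Mrpl47 and Mrpl1, and the lowest single value was 7.38 TPM, for Mrpl1 in WT replicate 2.

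The largest changes were in 2 large subunit genes. Mrpl19 (GRCm38 chromosome 6, 81957851 to 81965958, minus strand), whose bacterial counterpart lies at the interface of the subunits, was at 36.1, 31.0 and 35.8 TPM in the labelled knockout, against 8.67, 9.07 and 8.27 TPM in WT. Its group means differed 3.96-fold, and its log2 fold change was 1.87 ± 0.10 (adjusted p = 2.4e-07). Mrpl54 (chromosome 10, 81264713 to 81266934, minus strand), a protein of mitochondrial ribosomes only, was at 136, 132 and 139 TPM in the labelled knockout, against 33.2, 39.9 and 36.7 TPM in WT. Its log2 fold change was 1.87 ± 0.10 (adjusted p = 2e-07). Mrpl54 ranked 8th of the members in the labelled knockout and 30th in WT. Both genes stayed higher with median-of-ratios scaling, with log2 fold changes of 0.98 (adjusted p = 1.2e-05) for Mrpl19 and 0.94 (adjusted p = 3.4e-05) for Mrpl54. The annotated exons of Mrpl19 share 1962 bases with Gcfc2 on the opposite strand, and the strand setting of the counting is not given in the sources used here.

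Next in size came a group from both subunits. Mrps6, a platform protein of the small subunit, was at 32.7, 40.6 and 37.7 TPM in the labelled knockout, against 10.6, 11.4 and 10.7 TPM in WT. Mrpl33, a small large-subunit protein whose bacterial counterpart lies near the exit site for transfer RNA, was at 115, 119 and 129 TPM in the labelled knockout, against 34.1, 40.2 and 39.4 TPM in WT. Mrps25, a small subunit protein of mitochondria only, was at 48.6, 50.3 and 48.7 TPM in the labelled knockout, against 16.8, 19.7 and 16.4 TPM in WT. In all 3 genes the groups were far apart, with log2 fold changes of 1.67 ± 0.11 for Mrps6, 1.65 ± 0.10 for Mrpl33 and 1.43 ± 0.10 for Mrps25 (largest adjusted p = 1e-06). Mrps25 moved furthest in rank, to 43rd in the labelled knockout against 67th in WT.

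The polypeptide exit tunnel opens through a ring of proteins on the large subunit, and its 6 genes spread over much of the range of the members. As deposited, 5 were higher, where 74.5% of all genes tested were, and 1 did not pass the test. Their median log2 fold change was 0.75. With median-of-ratios scaling 2 were higher and 3 lower (median -0.19), and with quantile normalization 3 were higher and 2 lower (median 0.14). Mrpl23, which in bacteria is the docking site for targeting factors, was at 106, 103 and 116 TPM in the labelled knockout, against 32.0, 44.6 and 37.2 TPM in WT (log2 fold change 1.5 ± 0.13, adjusted p = 3.2e-06). Mrpl45, which in mammals tethers the mitochondrial ribosome to the inner membrane, was at 28.9, 25.2 and 27.4 TPM in the labelled knockout, against 10.1, 11.5 and 10.2 TPM in WT (1.28 ± 0.10, adjusted p = 2.2e-06). Mrpl23 and Mrpl45 stayed higher with median-of-ratios and quantile scaling. Mrpl47, on the same ring, was at 13.5, 13.0 and 12.8 TPM in the labelled knockout and at 10.8, 13.7 and 10.1 TPM in WT, so that WT replicate 2 lay above all 3 labelled knockout libraries. Its log2 fold change was 0.18 ± 0.12 (adjusted p = 0.19), and without WT replicate 2 it was 0.30 (adjusted p = 0.018).

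All 3 genes of the stalk that recruits translation factors to the large subunit were higher as deposited, where 74.5% of all genes tested were. Their median log2 fold change was 0.89. With median-of-ratios scaling none was higher and 1 was lower (median -0.03), and with quantile normalization 2 were higher (median 0.19). Mrpl12, which also binds the mitochondrial RNA polymerase, was at 141, 151 and 145 TPM in the labelled knockout, against 84.1, 106 and 88.9 TPM in WT. Its log2 fold change was 0.65 ± 0.11 (adjusted p = 0.00036) as deposited, and -0.29 (adjusted p = 0.026) with median-of-ratios scaling. The other stalk genes, Mrpl10 and Mrpl11, had log2 fold changes of 0.89 ± 0.09 (adjusted p = 9.6e-06) and 1.11 ± 0.09 (adjusted p = 2.9e-06).

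All 8 genes of the central protuberance, the crest of the large subunit, were higher as deposited, where 74.5% of all genes tested were. Their median log2 fold change was 0.93. Mrpl58, a peptidyl-tRNA hydrolase that is built into the ribosome and acts in the rescue of stalled ribosomes, was at 95.3, 93.1 and 90.5 TPM in the labelled knockout, against 43.3, 50.9 and 42.9 TPM in WT (log2 fold change 1.01 ± 0.10, adjusted p = 8.3e-06). Mrpl18, whose bacterial counterpart binds 5S ribosomal RNA, was at 82.8, 84.5 and 80.3 TPM in the labelled knockout, against 48.4, 49.7 and 51.7 TPM in WT. The log2 fold change of Mrpl18 was 0.71 ± 0.09 (adjusted p = 3.5e-05) as deposited and -0.22 (adjusted p = 0.057) with median-of-ratios scaling. The exons of Mrpl18 share 141 bases with Tcp1 on the opposite strand, which was at a similar level. With median-of-ratios scaling 2 of the 8 were higher and 1 lower.

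Around the peptidyl transferase centre and the upper tunnel, 4 of 5 genes were higher as deposited, where 74.5% of all genes tested were. Their median log2 fold change was 0.49. With median-of-ratios scaling and with quantile normalization alike, 2 were higher and 3 lower (median -0.44 with the first and -0.19 with the second). Mrpl4, whose bacterial counterpart lines the upper tunnel, was at 29.3, 27.8 and 26.5 TPM in the labelled knockout and at 29.8, 31.1 and 25.6 TPM in WT, and the groups overlapped. Its log2 fold change was -0.04 ± 0.10 (adjusted p = 0.72), and Mrpl4 had the largest loss of rank among the members, to 67th in the labelled knockout against 44th in WT.

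Mrpl49 was the only member called lower as deposited. This protein of the mitochondrial large subunit was at 16.9, 17.5 and 16.4 TPM in the labelled knockout, against 19.0, 22.6 and 20.6 TPM in WT, with no overlap. The log2 fold change was -0.28 ± 0.10 (adjusted p = 0.025), and Mrpl49 (chromosome 19, 6053622 to 6057785, minus strand) was lower too under median-of-ratios scaling (-1.17, adjusted p = 1.3e-05) and quantile normalization (-1.03, adjusted p = 1.9e-05). As deposited, the adjusted p passed the threshold no longer when labelled knockout replicate 1 (0.064) or 3 (0.094), or WT replicate 2 (0.058) or 3 (0.052), was left out.

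Another 5 members beside Mrpl47 did not pass the test as deposited, and their groups overlapped. Mrpl39, a large subunit protein of mitochondria only, was at 17.2, 18.4 and 16.5 TPM in the labelled knockout and at 18.5, 21.3 and 17.7 TPM in WT (log2 fold change -0.13 ± 0.10, adjusted p = 0.26). Mrpl14, which lies at the subunit interface, was at 64.0, 72.7 and 66.9 TPM in the labelled knockout and at 63.6, 70.4 and 64.7 TPM in WT (0.03 ± 0.10, adjusted p = 0.74). Mrps5, a small subunit protein on the path of the messenger RNA, was at 70.8, 78.9 and 74.5 TPM in the labelled knockout and at 68.3, 75.2 and 65.8 TPM in WT (0.10 ± 0.10, adjusted p = 0.35). Mrps31, found only in mitochondrial small subunits, was at 22.6, 29.7 and 23.5 TPM in the labelled knockout and at 22.7, 23.4 and 19.1 TPM in WT (0.20 ± 0.13, adjusted p = 0.16). These 4 genes, Mrpl4 and Mrpl47 were all called lower with median-of-ratios scaling and with quantile normalization.

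The genes with the smallest called increases were Mrpl41, Mrpl15 and Mrpl50, which were higher as deposited but lower under median-of-ratios and quantile scaling. Mrpl41, of mitochondria only, was at 38.8, 42.7 and 40.4 TPM in the labelled knockout, against 30.3, 36.2 and 32.2 TPM in WT (log2 fold change 0.30 ± 0.10, adjusted p = 0.018). Leaving out labelled knockout replicate 2 or 3 (adjusted p = 0.053 each), or WT replicate 1 (0.074) or 3 (0.053), ended that call. Mrpl15, of bacterial descent, was at 84.2, 93.9 and 86.1 TPM in the labelled knockout, against 70.7, 77.0 and 64.4 TPM in WT (0.31 ± 0.10, adjusted p = 0.015), and its call was lost without WT replicate 3 (adjusted p = 0.067). Mrpl50, of mitochondria only, was at 29.9, 31.0 and 28 TPM in the labelled knockout, against 22.2, 24.6 and 22.5 TPM in WT (0.35 ± 0.09, adjusted p = 0.0063).

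**Figure D2:**
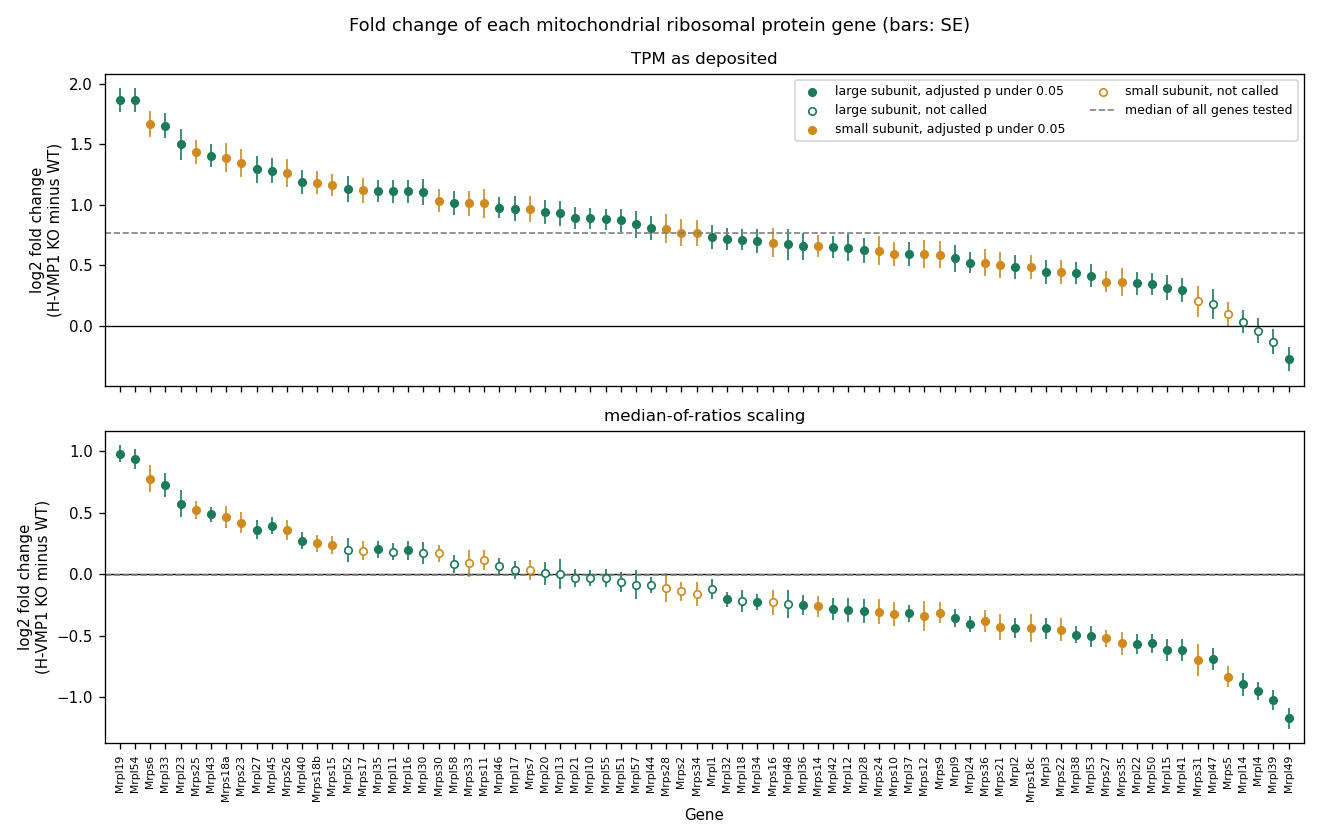
Log2 fold change (H-VMP1 KO minus WT, bars SE) of the 78 genes with TPM as deposited (top) and with median-of-ratios scaling (bottom), green for genes named for the large subunit and orange for the small, filled where the adjusted p was under 0.05. As deposited, large subunit genes run from Mrpl19 (1.87) to Mrpl49 (-0.28) and take both ends, and small subunit genes lie within them, from Mrps6 (1.67) to Mrps5 (0.10). The dashed line is the median of all genes tested.

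Among the small subunit genes of the decoding site and the path of the messenger RNA, 6 of 7 were higher as deposited. Of all genes tested, 74.5% were higher. The median log2 fold change of the 7 was 0.62. Mrps12, whose bacterial counterpart sets the accuracy of decoding, was at 81.5, 97.3 and 98.8 TPM in the labelled knockout, against 54.2, 67.6 and 61.1 TPM in WT (log2 fold change 0.59 ± 0.12, adjusted p = 0.00098). With median-of-ratios scaling none of the 7 was higher and 4 were lower, Mrps12 among them (-0.34, adjusted p = 0.036).

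The genome holds 3 paralogues of the bacterial protein S18, and they differed in size of change. Mrps18a, which sits in the large subunit despite its name, was at 107, 86.8 and 111 TPM in the labelled knockout, against 36.8, 42.5 and 35 TPM in WT (log2 fold change 1.39 ± 0.12, adjusted p = 4.3e-06). Mrps18b was at 130, 115 and 130 TPM in the labelled knockout, against 55.3, 56.4 and 51.6 TPM in WT (1.18 ± 0.10, adjusted p = 2.5e-06). Mrps18c, which holds the place of S18 in the small subunit, was at 46.6, 55.5 and 49.3 TPM in the labelled knockout, against 33.8, 35.7 and 37.6 TPM in WT (0.49 ± 0.10, adjusted p = 0.0012). With median-of-ratios scaling Mrps18a (0.46, adjusted p = 0.0023) was higher, as was Mrps18b (0.25, adjusted p = 0.012), and Mrps18c was lower (-0.44, adjusted p = 0.01). Whether the changes of the 3 paralogues differ from one another was not tested.

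A further 2 genes of the Mrps family are named against their place. Mrps30, a component of the large subunit, was at 17.4, 16.5 and 17.2 TPM in the labelled knockout, against 7.51, 8.51 and 7.39 TPM in WT (log2 fold change 1.04 ± 0.10, adjusted p = 6.4e-06). Mrps36, now known as a component of the alpha-ketoglutarate dehydrogenase complex and not of the ribosome, was at 30.3, 29.3 and 28.6 TPM in the labelled knockout, against 17.9, 23.3 and 19.6 TPM in WT (0.52 ± 0.11, adjusted p = 0.0015). Mrps36 was lower with median-of-ratios scaling (-0.38, adjusted p = 0.0055).

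The median changes of the large and small subunit genes were close to each other. Of the genes named for the large subunit, 44 of 49 (89.8%) were higher and 1 lower, with a median log2 fold change of 0.74, and of those named for the small subunit 27 of 29 (93.1%) were higher, with a median of 0.77, where 74.5% of all genes tested were higher. With median-of-ratios scaling 10 of the 49 were higher and 22 lower, and 7 of the 29 were higher and 13 lower. With quantile normalization 21 of the 49 were higher and 13 lower, and 12 of the 29 were higher and 6 lower. With Mrps18a and Mrps30 counted in the large subunit and Mrps36 in neither, the medians were 0.81 over 51 large and 0.73 over 26 small subunit genes. The summed TPM of Mrpl genes over that of Mrps genes, which does not depend on the scaling between libraries, was 2.04, 1.99 and 1.99 in the labelled knockout, against 1.96, 1.93 and 1.96 in WT. The 3 labelled knockout values lay above the 3 WT values by 0.04 on the log2 scale, and this difference was not tested. With the genes assigned by structure the ratio was 2.32, 2.22 and 2.26 in the labelled knockout, against 2.15, 2.12 and 2.14 in WT, a log2 difference of 0.083 with no overlap. Without the 3 most abundant genes of each subunit the ratio was 2.19, 2.14 and 2.14 in the labelled knockout and 2.19, 2.14 and 2.22 in WT, and the groups overlapped. Genes with a bacterial counterpart (42 of 46 higher, median log2 fold change 0.72) ranged from -0.04 to 1.87. Genes of mitochondria only (28 of 31 higher and 1 lower, median 0.84) covered an overlapping range of -0.28 to 1.87. Of the S18 paralogues, Mrps18a and Mrps18b were counted with the genes of mitochondria only, and Mrps18c with those that have a bacterial counterpart.

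Subunit genes without an Mrp symbol are not among the 78. Dap3, Ptcd3, Aurkaip1 and Chchd1 of the small subunit and Gadd45gip1 of the large subunit were all higher as deposited, with log2 fold changes of 0.37 to 0.90 and a median of 0.64. As deposited, 74.5% of all genes tested were higher, and the median of all genes tested was 0.77. With median-of-ratios scaling none of the 5 was higher and 4 were lower (median -0.27), and with quantile normalization 1 was higher and 1 lower. Of all genes tested, 35.1% were higher and 36.6% lower with median-of-ratios scaling, and 35.3% and 35.4% with quantile normalization. Dap3, a GTP-binding protein of the small subunit, was at 54.4, 56.8 and 56.8 TPM in the labelled knockout, against 26.7, 32.2 and 29.9 TPM in WT.

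Both ribosomal RNAs of the mitochondrial genome were higher as deposited, and some of its messenger RNAs were lower. The small subunit rRNA mt-Rnr1 was at 3364, 3169 and 4481 TPM in the labelled knockout, against 766, 797 and 877 TPM in WT (log2 fold change 2.16 ± 0.15, adjusted p = 1.1e-06). The large subunit rRNA mt-Rnr2 was at 947, 1033 and 996 TPM in the labelled knockout, against 465, 538 and 581 TPM in WT (0.91 ± 0.12, adjusted p = 6.4e-05). With median-of-ratios scaling the log2 fold change of mt-Rnr2 was -0.03, while mt-Rnr1 stayed higher (1.215). Both were higher with quantile normalization (0.38 and 2.26). Whether rRNA was depleted or poly(A) RNA selected is not given in the sources used here. Of the 13 messenger RNAs of the mitochondrial genome, none was higher and 5 were lower as deposited, with a median log2 fold change of -0.37. All 13 were lower with median-of-ratios scaling (median -1.31), while 4 were higher and 5 lower with quantile normalization (median -0.13). The largest decreases as deposited were in mt-Co3 (-1.02 ± 0.16, adjusted p = 0.00022), mt-Nd2 (-0.83 ± 0.21, adjusted p = 0.0044) and mt-Cytb (-0.68 ± 0.18, adjusted p = 0.0065), which encode subunits of complexes IV, I and III. The summed TPM of the mitochondrial ribosomal protein genes per 1000 TPM of these messenger RNAs, whose own sums overlapped between the groups, was 69.0, 55.1 and 77.0 in the labelled knockout, against 24.6, 35.4 and 31.5 in WT.

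In median log2 fold change as deposited, the mitochondrial ribosomal protein genes lay below the cytosolic ribosomal proteins and above the nuclear respiratory chain subunits. The lists of assembly, synthetase, translation factor and mitochondrial DNA transcription genes, given below, also had lower medians. The summed level of the mitochondrial ribosomal protein genes was 5185, 5214 and 5261 TPM in the labelled knockout, against 2755, 3155 and 2808 TPM in WT, a ratio of means of 1.80. For the cytosolic ribosomal proteins, all 79 genes tested were higher, with a median log2 fold change of 1.63 (range 0.80 to 2.42). Under median-of-ratios scaling 74 cytosolic genes were higher, and under quantile normalization 77. The list of nuclear-encoded subunits of the respiratory chain also holds ATP synthase genes. Of its 79 entries, 40 were higher as deposited and none lower, where 74.5% of all genes tested were higher. The median of these entries was 0.26. Atp5o is listed more than once among these entries and was counted each time, also in the summed TPM. With median-of-ratios scaling 1 of these 79 was higher and 74 were lower (median -0.68), and with quantile normalization 5 were higher and 33 lower (median -0.20). Within each library, the mitochondrial ribosomal protein sum over the cytosolic ribosomal protein sum was 0.0588, 0.0659 and 0.0553 in the labelled knockout, against 0.116, 0.0988 and 0.106 in WT. Over the respiratory chain sum it was 0.272, 0.245 and 0.264 in the labelled knockout, against 0.179, 0.172 and 0.167 in WT. For both ratios, which do not depend on the scaling, the groups did not overlap, and neither was tested.

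**Figure D3:**
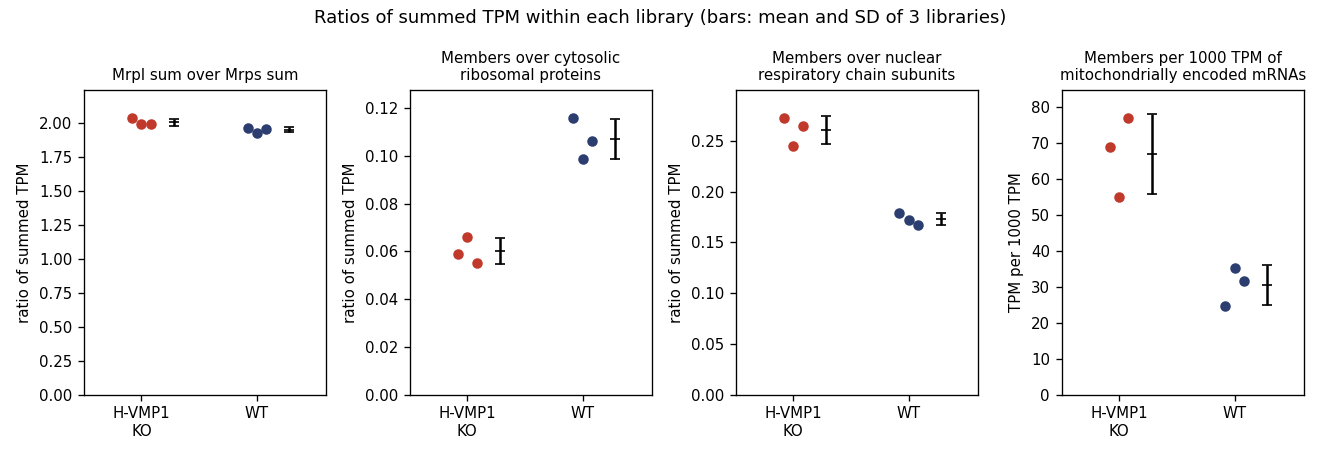
Ratios of summed TPM within each library, with the 3 labelled H-VMP1 KO libraries (red) left of the 3 WT libraries (blue) and bars for mean and SD. The ratio of large to small subunit genes is close to 2.0 in both groups, while that to cytosolic ribosomal proteins is 0.0600 in the labelled knockout and 0.107 in WT, and those to respiratory chain subunits and mitochondrial messenger RNAs are higher in the labelled knockout. The respiratory chain subunits here include ATP synthase genes.

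Genes that build or serve the mitochondrial ribosome were examined as further lists, beside the 74.5% of all genes tested that were higher and the 10.7% that were lower as deposited. Of 27 tested genes of ribosome assembly and rRNA modification, 23 were higher and none lower, with a median log2 fold change of 0.58. Ddx28, an RNA helicase of large subunit assembly, was at 27.1, 19.4 and 24.9 TPM in the labelled knockout, against 6.69, 6.42 and 5.60 TPM in WT (1.77 ± 0.13, adjusted p = 1.7e-06). Mpv17l2, an inner membrane protein of ribosome assembly (1.59 ± 0.12, adjusted p = 1.2e-06), and Gtpbp6, a GTPase of ribosome recycling and large subunit assembly (1.17 ± 0.12, adjusted p = 8.2e-06), followed. Of 15 tested translation factors and messenger RNA chaperones, 7 were higher and 1 lower (median 0.25). The highest were Slirp, which binds mitochondrial messenger RNA (1.12 ± 0.09, adjusted p = 2.7e-06), the elongation factor Tsfm (1.0 ± 0.10, adjusted p = 7.7e-06) and the recycling factor Mrrf (0.80 ± 0.11, adjusted p = 6.6e-05). The initiation factor Mtif2 was lower (-0.35 ± 0.10, adjusted p = 0.0096).

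Mitochondrial aminoacyl-tRNA synthetases, which charge the transfer RNAs, were higher in 10 of 16 cases and lower in none as deposited (median 0.37), in the comparison in which 74.5% of all genes tested were higher. Ears2 (1.5 ± 0.13, adjusted p = 4.8e-06), Tars2 (1.04 ± 0.09, adjusted p = 4.3e-06) and Pars2 (0.94 ± 0.18, adjusted p = 0.00087) changed most. Of 9 genes of mitochondrial DNA transcription and replication, 5 were higher and 1 lower (median 0.25). The topoisomerase Top1mt was higher (0.97 ± 0.10, adjusted p = 9.8e-06) and the polymerase subunit Polg2 was lower (-0.69 ± 0.11, adjusted p = 0.00018). With median-of-ratios scaling, most tested genes of each of these lists were lower, where 36.6% of all genes tested were. The lower genes were 15 of 27 assembly genes, 11 of 15 translation factors, 12 of 16 synthetases and 8 of 9 transcription and replication genes. Higher with this scaling were 4 assembly genes, 1 synthetase, 0 translation factors and 0 transcription and replication genes, against 35.1% of all genes tested. With quantile normalization, 13 assembly genes, 9 translation factors, 10 synthetases and 8 transcription and replication genes were lower. The share of all genes tested that was lower was 35.4%. Higher with quantile normalization were 4 assembly genes, 1 translation factor, 2 synthetases and 0 transcription and replication genes, against 35.3% of all genes tested.

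Among 10 nuclear regulators of mitochondrial genes, 6 were higher and 1 lower as deposited (median 0.51, against 0.77 for all genes tested). Of all genes tested, 74.5% were higher and 10.7% lower. With median-of-ratios scaling 2 regulators were higher and 5 lower (median -0.34), and with quantile normalization 3 were higher and 5 lower (median -0.30). The shares of all genes tested were 35.1% higher and 36.6% lower with the first, and 35.3% and 35.4% with the second. Myc, a transcription factor of growth and ribosome genes, was at 50.1, 52.8 and 53.2 TPM in the labelled knockout, against 2.21, 3.77 and 3.65 TPM in WT (log2 fold change 3.68 ± 0.15, adjusted p = 6.3e-08). The coactivator Pprc1 (1.48 ± 0.12, adjusted p = 2.2e-06) and the transcription factor Yy1 (1.05 ± 0.14, adjusted p = 5.4e-05) were next. Myc and Pprc1 stayed higher with median-of-ratios scaling, while Yy1 did not pass the test (0.15, adjusted p = 0.23). The macrophage, stellate and neutrophil markers given above also moved with the label, and their part in the value of Myc was not tested.

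**Figure D4:**
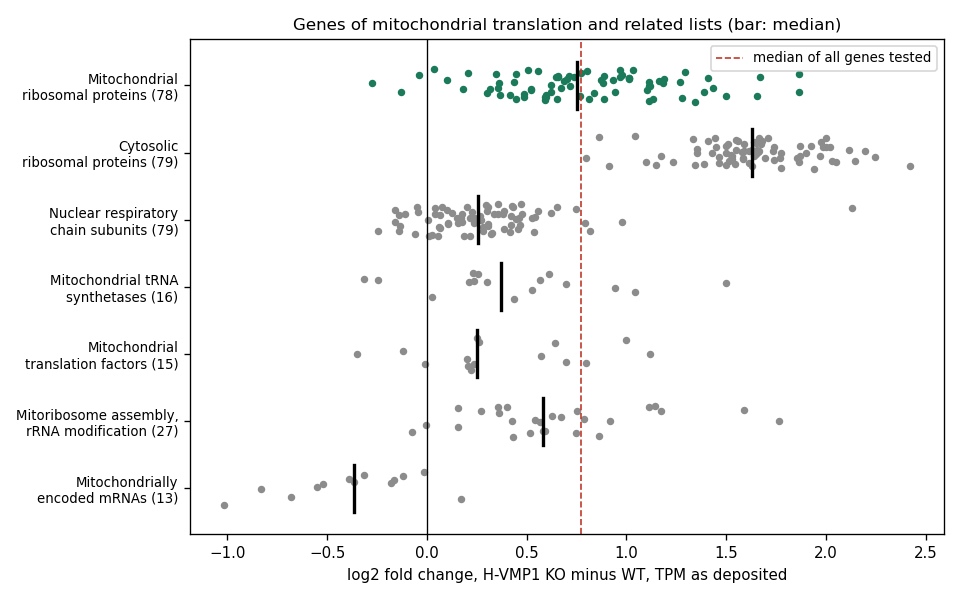
Log2 fold change (H-VMP1 KO minus WT, TPM as deposited) of every tested gene in 7 lists, with the number tested in brackets and a black bar at the median. Among the respiratory chain subunits, which here include ATP synthase genes, Atp5o is entered more than once. The 78 mitochondrial ribosomal protein genes (green, median 0.75) lie between the cytosolic ribosomal proteins (1.63) and the nuclear respiratory chain subunits (0.26), close to the median of all genes tested (0.77, dashed).

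The members lie on 17 chromosomes, 11 of them on chromosome 11, and all are annotated as protein-coding. A start of another protein-coding gene on the opposite strand within 1000 bases was found for 33 of the 78 (42.3%), against 1903 of 11620 tested protein-coding genes (16.4%). Members with such a neighbour (29 of 33 higher, median log2 fold change 0.77) and those without (42 of 45 higher, median 0.74) had medians close to each other. The neighbour was tested for 29 of the 33, Mrps11 and Mrpl46 being neighbours of each other and counted from both sides. In 19 of the 29 the log2 fold changes of member and neighbour lay within 0.5 of each other. In 3 the neighbour was above the member by more than 0.5, and in 7 it was below by more than 0.5. No such share was computed for other pairs of genes, in a comparison in which 74.5% of all genes tested were higher. The pairs described next were chosen after their values were seen. Fau, which encodes a protein of the cytosolic small subunit and starts 59 bases from Mrpl49, was at 1027, 923 and 1074 TPM in the labelled knockout, against 305, 423 and 339 TPM in WT (1.51 ± 0.14, adjusted p = 6.1e-06), while Mrpl49 was lower. Apba3, which starts 26 bases from Mrpl54, had a log2 fold change of 0.54 ± 0.11 (adjusted p = 0.00098), against 1.87 for Mrpl54. Twnk, the mitochondrial DNA helicase, had 0.45 ± 0.10 (adjusted p = 0.0025), against 1.41 for its neighbour Mrpl43. The exons of Mrpl43 and Twnk share 507 bases on opposite strands, so reads there cannot be assigned with certainty.

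Mrps11 and Mrpl46 lie on opposite strands of chromosome 7 and share 173 exonic bases. Mrps11 was at 31.4, 27.9 and 28.8 TPM in the labelled knockout, against 14.5, 15.8 and 12 TPM in WT, and Mrpl46 was at 38.4, 38.5 and 39.2 TPM, against 18.8, 20.3 and 18.6 TPM in WT. The log2 fold changes were 1.01 ± 0.12 for Mrps11 and 0.98 ± 0.09 for Mrpl46. Because the strand setting is not known, reads in the shared bases cannot be assigned with certainty. The same holds for Mrps25, whose exons share 4590 bases with Nr2c2, for Mrpl47, which shares 616 bases with the respiratory chain gene Ndufb5 (mean over the 6 libraries 120 TPM, against 12.3 TPM for Mrpl47), and for Mrpl49, which shares 91 bases with Syvn1. Of the 78 members, 33 share exonic bases with another annotated gene, and 45 share none. Of these 45, 41 were higher as deposited, with a median log2 fold change of 0.70, where 74.5% of all genes tested were higher.

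**Figure D5:**
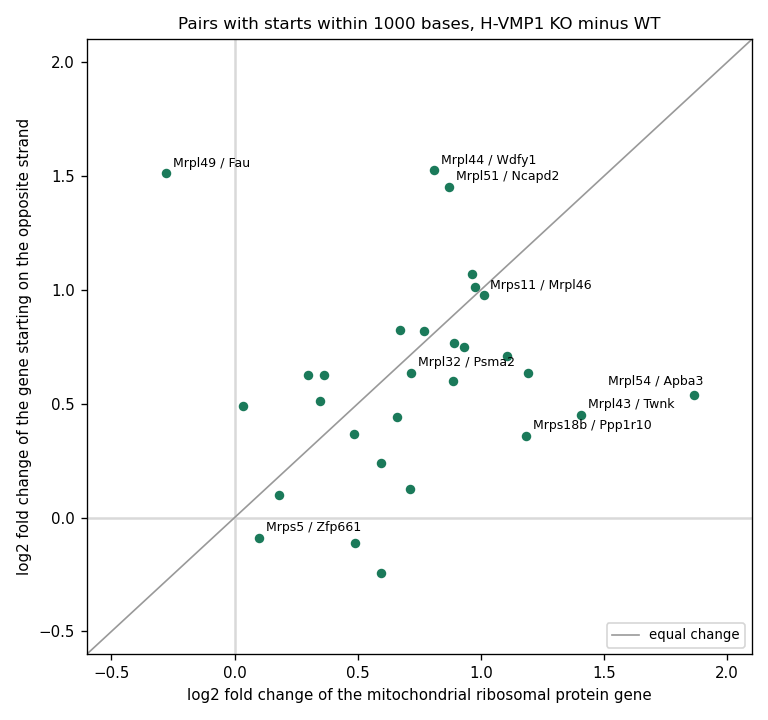
Log2 fold change (H-VMP1 KO minus WT) of 29 mitochondrial ribosomal protein genes (horizontal) and of the protein-coding gene that starts within 1000 bases on the opposite strand (vertical), with the line of equal change. Mrpl49 and Fau lie farthest above the line (-0.28 and 1.51) and Mrpl54 and Apba3 farthest below it (1.87 and 0.54).

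Promoter windows of 250 bases before to 50 bases after the start, from RefSeq (GRCm38.p6), were matched by symbol for 69 of the 78 members, those without one being Mrpl4, Mrpl13, Mrpl15, Mrpl19, Mrpl38, Mrpl54, Mrps28, Mrps34 and Mrps35. They were searched on both strands for motifs of factors linked to mitochondrial and growth genes. The NRF1 motif was found in 18.8% of the 69, in 11.4% of 9455 other tested genes with a window and in 4.6% of all 32851 windows. The ETS motif CCGGAAG, which GABPA binds, was found in 37.7%, 20.2% and 8.9%, and the YY1 motif ATGGCGGC in 17.4%, 5.7% and 2.2%. The Sp1 motif GGGCGG was found in 49.3%, 66.7% and 35.7%, the E-box CACGTG of Myc and related factors in 7.2%, 11.8% and 7.2%, and the TATA box TATAAA in 7.2%, 9.5% and 13.6%. The ATF4 motif TGATGCAA was found in 0 of the 69, in 0.8% of the other tested genes and in 0.9% of all windows. Median log2 fold changes of members with and without a match were 0.72 and 0.75 for NRF1, 0.85 and 0.72 for ETS, 0.58 and 0.77 for YY1, and 0.59 and 0.79 for the E-box. At least 1 NRF1, ETS or YY1 match was found in 41 of the 69. A match is a description of the letters in the window and not a bound site.

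The 150 bases before the start are shown for the 3 members with a single window and the largest change and the 3 with the smallest, so that the promoters of genes that moved differently can be compared. They are written 5′ to 3′ on the gene's strand, with any NRF1, ETS or YY1 match in capitals. The windows of Mrps6 (chr16:92058186-92058335, plus strand), Mrpl33 (chr5:31613801-31613950, plus strand) and Mrpl23 (chr7:142532882-142533031, plus strand) hold no match in this stretch. The full window of Mrpl33 holds an ETS match that does not lie wholly in the stretch shown.
Mrps6: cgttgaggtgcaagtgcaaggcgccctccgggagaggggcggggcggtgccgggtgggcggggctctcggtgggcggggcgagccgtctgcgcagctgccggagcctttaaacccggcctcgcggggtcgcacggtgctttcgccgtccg
Mrpl33: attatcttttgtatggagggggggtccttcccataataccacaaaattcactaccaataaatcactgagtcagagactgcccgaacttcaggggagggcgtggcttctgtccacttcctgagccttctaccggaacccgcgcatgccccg
Mrpl23: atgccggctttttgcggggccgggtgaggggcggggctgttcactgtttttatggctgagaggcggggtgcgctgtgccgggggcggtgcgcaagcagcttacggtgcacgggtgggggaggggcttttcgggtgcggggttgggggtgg
Of the 3 genes with the smallest change, Mrpl49 (chr19:6057756-6057905, minus strand), Mrpl39 (chr16:84735245-84735394, minus strand) and Mrpl14 (chr17:45686199-45686348, plus strand), Mrpl39 holds an NRF1 match that begins at position -125, counted back from the start. The full window of Mrpl14 also holds an NRF1 match, which does not lie wholly in the stretch shown.
Mrpl49: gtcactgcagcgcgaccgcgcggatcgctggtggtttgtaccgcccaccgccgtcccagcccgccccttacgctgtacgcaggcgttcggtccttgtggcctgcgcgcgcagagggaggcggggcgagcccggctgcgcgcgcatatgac
Mrpl39: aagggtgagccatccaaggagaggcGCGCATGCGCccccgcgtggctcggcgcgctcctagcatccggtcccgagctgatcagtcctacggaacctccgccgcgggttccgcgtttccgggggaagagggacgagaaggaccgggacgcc
Mrpl14: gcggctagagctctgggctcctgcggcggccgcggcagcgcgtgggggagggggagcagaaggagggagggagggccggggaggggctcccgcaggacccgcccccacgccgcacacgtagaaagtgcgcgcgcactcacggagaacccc
For each of the NRF1, ETS and YY1 motifs, the most abundant member with a single window, a match in this stretch and not yet shown is given as an example of a promoter with the motif. Mrps21 (chr3:95871515-95871664, minus strand) holds an NRF1 match at -91, Mrpl52 (chr14:54426759-54426908, plus strand) an ETS match at -47, and Mrps11 (chr7:78782981-78783130, plus strand) a YY1 match at -110.
Mrps21: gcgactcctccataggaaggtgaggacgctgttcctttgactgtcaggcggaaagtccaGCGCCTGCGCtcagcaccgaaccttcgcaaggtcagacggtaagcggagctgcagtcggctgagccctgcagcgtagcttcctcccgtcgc
Mrpl52: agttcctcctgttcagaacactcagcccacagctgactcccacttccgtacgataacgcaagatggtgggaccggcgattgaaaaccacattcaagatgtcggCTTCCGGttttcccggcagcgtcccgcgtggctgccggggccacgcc
Mrps11: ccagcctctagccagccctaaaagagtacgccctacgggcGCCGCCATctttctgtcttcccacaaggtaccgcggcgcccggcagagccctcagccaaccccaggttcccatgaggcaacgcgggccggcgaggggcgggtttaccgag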

How the data were processed

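Liver RNA of 6 samples (3 labelled H-VMP1 KO, 3 WT) was measured by RNA sequencing. The authors deposited TPM values per gene, scaled to the same sum in each library. Per the submitters' processing notes, STAR 2.6.1c, RSEM, edgeR and mm10 were named, with no role or order. No counts were used. Depth (so the counting precision), read length and strand were not stated in the sources available. The TPM values were tested on log2(TPM + 1) with limma 3.58.1 in R 4.3.3 (trended, robust variance), over 12796 genes that reached 1 TPM in 3 or more libraries, with Benjamini-Hochberg adjustment. The test was also run on simulated libraries with known fold changes in a small part of the genes and no shift of scale between libraries. That run cannot check how the calls depend on scaling. Positions are from GENCODE M21 (GRCm38), which matched 55450 of 55536 gene IDs. The members and lists were chosen with earlier results of these data known. Members given per library were the 5 with the highest and 3 with the lowest mean level, the 6 with the largest and 6 with the smallest change, up to 6 not called, up to 3 called in opposite directions under the scalings, and 10 chosen for their roles. From each other list at most 3 called genes were named. Mrpl10, Mrpl11, Mrpl43, Mrpl46, Mrps11, Mtif2 and the neighbouring genes were named after their values were seen. Alternatives were other pseudocounts, filters, scalings, a replicate block and leaving out each library.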

Additional observations from a re-analysis of the deposited data

How the results depend on the processing

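Scaling between libraries moved the results most, and the cause was not tested. The counts over all genes tested (higher, lower), over the members (higher, lower) and the members' median log2 fold change were 4496, 4689, 17, 35 and -0.15 with median-of-ratios scaling, and 4520, 4534, 33, 19 and 0.064 with quantile normalization. They were 4372, 4570, 16, 37 and -0.15 with a replicate block and median-of-ratios scaling. Scaled to the members themselves, an alternative chosen after seeing the data, they were 5139, 3823, 26, 23 and -0.01. The members' median was 0.68 with a pseudocount of 5, 0.58 without mitochondrial and the 20 most abundant genes (2 members lower) and 0.51 without Mup genes (4 lower). Same-numbered libraries did not deviate together (correlations 0.08, 0.04 and -0.12), so the numbers were not taken to pair the samples. With the replicate block alone 71 members were higher and 0 lower (limma), and over all genes tested 9427 were higher and 1333 lower. At an adjusted p under 0.01, 68 members were higher and 0 lower. The log2 difference of the large to small subunit ratio was 0.04 by name, 0.083 by structure, 0.066 by medians and -0.019 without the 3 most abundant genes of each.

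Leaving out 1 library at a time gave 7585 to 9599 genes higher and 1135 to 1341 lower, 69 to 72 members higher and 0 to 1 lower, a median of 0.73 to 0.81 and a ratio difference of 0.03 to 0.05. The log2 fold change of Mrpl14 was -0.016 without labelled knockout replicate 2 and 0.078 without WT replicate 2, and that of Mrpl4 was 0.014 without WT replicate 2.

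Over all 78 members, the log2 fold change changed sign in 45 with median-of-ratios scaling, 30 with quantile normalization and 37 when scaled to the members. The values that follow cover only the 31 members given per library by the naming rule. With median-of-ratios scaling, with or without the block, those that changed sign were Mrps21 (-0.43), Mrpl51 (-0.065), Mrpl12 (-0.29), Mrpl47 (-0.69), Mrpl1 (-0.12), Mrps5 (-0.83), Mrpl14 (-0.90), Mrps31 (-0.70), Mrpl50 (-0.56), Mrpl15 (-0.62), Mrpl41 (-0.62), Mrps18c (-0.44), Mrps36 (-0.38), Mrps12 (-0.34) and Mrpl18 (-0.22). With quantile normalization, of the 31, these were Mrpl47 (-0.61), Mrpl1 (-0.058), Mrps5 (-0.54), Mrpl14 (-0.61), Mrps31 (-0.55), Mrpl50 (-0.39), Mrpl15 (-0.31), Mrpl41 (-0.40), Mrps18c (-0.20), Mrps36 (-0.23) and Mrps12 (-0.051). Scaled to the members, of the 31, these were Mrps21 (-0.29), Mrpl12 (-0.15), Mrpl47 (-0.56), Mrps5 (-0.69), Mrpl14 (-0.75), Mrps31 (-0.56), Mrpl50 (-0.42), Mrpl15 (-0.47), Mrpl41 (-0.48), Mrps18c (-0.29), Mrps36 (-0.25), Mrps12 (-0.19) and Mrpl18 (-0.074). Without mitochondrial and the 20 most abundant genes, of the 31, these were Mrpl47 (-0.001), Mrps5 (-0.095) and Mrpl14 (-0.16), and without Mup genes Mrpl47 (-0.062), Mrps5 (-0.16), Mrpl14 (-0.23) and Mrps31 (-0.048). Depth is unknown, so no counting error can be given.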
